A study of Homo sapiens with 10 samples.

Results

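The genes described here carry the symbols of mitochondrial ribosomal proteins. They are all 78 genes of the deposited table whose symbol is MRPL or MRPS followed by a number and, for a few, a letter, out of 18144 genes listed. By symbol, 49 belong to the large subunit (MRPL) and 29 to the small subunit (MRPS). MRPS36 is kept in the set by its symbol, although it is now placed outside the ribosome. Proteins of this ribosome with other names, such as DAP3, fall outside the set. They lie on 21 chromosomes. All 78 passed the filter on low values, as did 14836 of all genes, and these 14836 are the background for every share given below.

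RNA was sequenced from spheroids, which are cultures grown in 3 dimensions, of PC-3, an established human prostate cancer line with low androgen receptor. Topotecan, an inhibitor of topoisomerase I that leaves breaks in replicating DNA, was given in 1 of 2 schedules. In CONV-TOPO the drug was added as a single bolus on day 0, and in EE-TOPO (extended exposure, labelled METRO for metronomic) as small daily fractions that add up to the same weekly total, so that by day 3 the spheroids under EE-TOPO had received only part of it. The untreated spheroids were of the same line and genotype (labelled WT), were handled alike and received no drug. The 7 libraries analysed were untreated on days 0, 3 and 7, CONV-TOPO on days 3 and 7, and EE-TOPO on days 3 and 7, each from 1 sample. The 3 samples of day 1 were not analysed here. The labels give days of culture, whereas the design text of the series speaks of weeks of exposure, and the days are used here.

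Mitochondria keep a small genome of their own, which encodes core subunits of the respiratory chain, and translate it on a dedicated ribosome. The RNA of this ribosome is made in the organelle, but every one of its proteins is encoded in the nucleus, made in the cytosol and imported, so its assembly needs both genomes. The large subunit joins amino acids and passes the new chain to the inner membrane, and the small subunit reads the messenger RNA. Some of the proteins have a counterpart in the bacterial ribosome and others were gained by mitochondria.

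With 1 library for each treatment and day there was no replicate, so the ratios of single libraries below are descriptions without a test. Expression is given in counts per 1000000 reads (CPM). Ratios are differences of log2(CPM + 1) after scaling with trimmed means of log ratios (TMM), which sets the bulk of genes to the same level, and a gene was counted as higher or lower from a 1.5-fold ratio. Depth, as read from the steps between low values, was 15.0 M to 22.5 M reads (M, 1000000) per library, and 3 reads equalled 0.133 to 0.200 CPM. The line markers KRT8, KRT18, EPCAM, VIM and CD44 were detected in every library at 149 CPM or more. Of 8 markers set as absent from the line or of other cell types, 5 were listed. PTPRC was at or below 0.489 CPM and COL1A2 at or below 0.601 CPM, and COL3A1 was at 3.26 to 16.0 CPM, while PECAM1 (16.8 to 32.7 CPM) and COL1A1 (46.6 to 83.0 CPM) were detected in all libraries. The summed level of these 5 was 72.8 to 120.2 CPM and was lower in both treated libraries than in the untreated library of day 7. Its part in the results was not tested.

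On day 7, most of the 78 genes were higher in the treated than in the untreated spheroids under both schedules, whereas on day 3 nearly all were lower. The median log2 ratio to the day-matched untreated library was -0.26 for CONV-TOPO and -0.37 for EE-TOPO on day 3, and 0.57 and 0.51 on day 7. Over all genes tested the medians lay between -0.03 and -0.01 in these comparisons. Both schedules of a day are set against the same untreated library, so their ratios are not independent of each other.

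**Figure D1:**
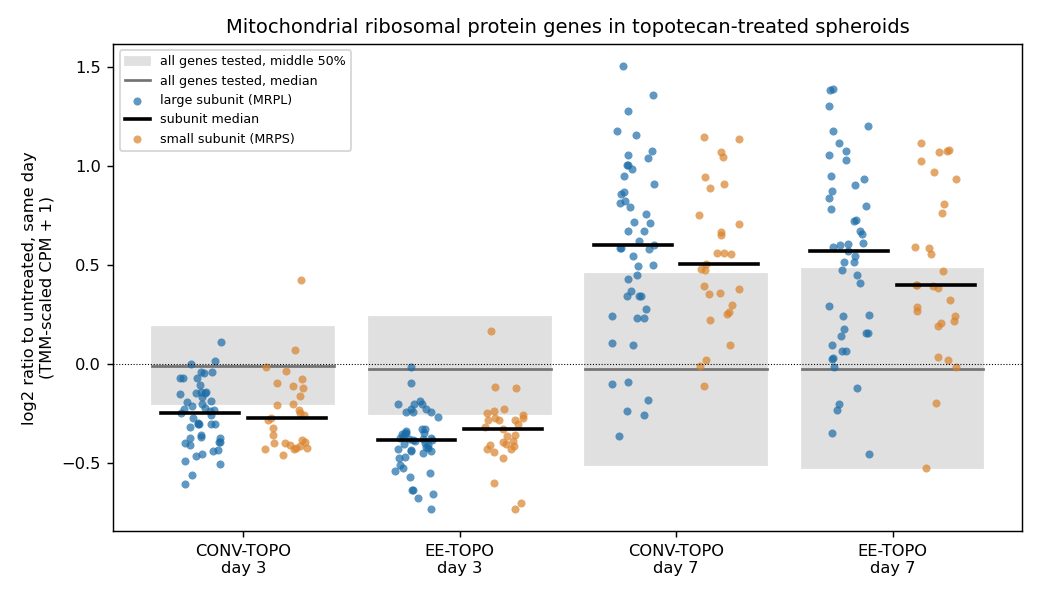
The plot shows the log2 ratio of each gene (points, by subunit) in each treated library to untreated spheroids of that day, with black bars for subunit medians and grey for the median and middle 50% of all genes tested. Points lie mostly below 0 on day 3 and mostly above 0 on day 7, with subunit medians of -0.25 and -0.27 (CONV-TOPO) and -0.38 and -0.33 (EE-TOPO) on day 3 and of 0.60 and 0.50 and 0.57 and 0.40 on day 7.

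The sum over the 78 genes showed the same course. In untreated spheroids it was 5333 CPM at the start (day 0), 4892 after 3 days and 4378 after 7. Under CONV-TOPO it was 4227 CPM after 3 days and 5605 after 7, and under EE-TOPO 3990 and 5448. In CPM the treated libraries of day 7 thus lay near untreated day 0, whereas after TMM scaling they lay above it, at 6416 and 6108 against 5443. The untreated library of day 7 was the lowest of the untreated ones on both scales. In a bulk sample, fewer cells of a kind and less RNA per cell cannot be told apart. The large subunit held 56.4% to 59.1% of the sum in every library.

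**Figure D2:**
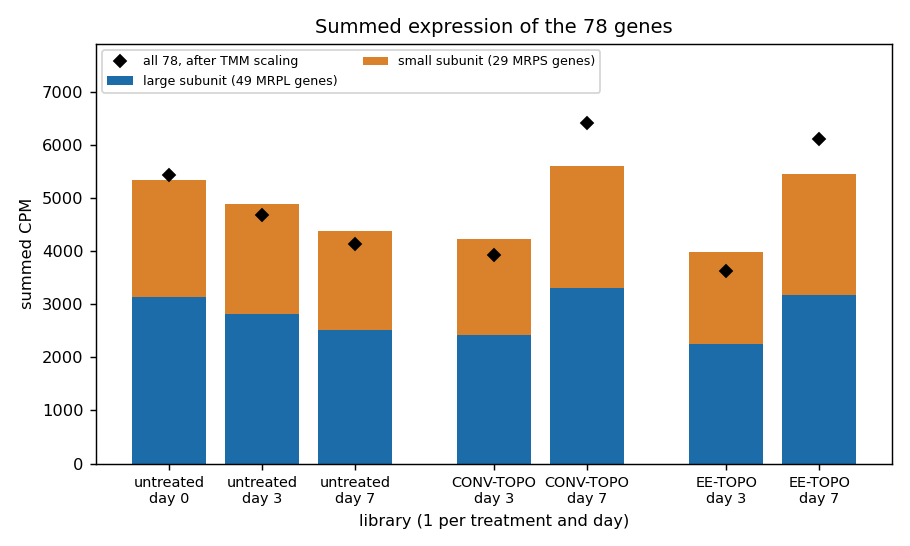
Bars give the summed CPM of the 49 large-subunit and 29 small-subunit genes in each library, and diamonds the sum over all 78 after TMM scaling. The sum was short of its untreated counterpart on day 3 (4227 and 3990 against 4892 CPM) and exceeded it on day 7 (5605 and 5448 against 4378 CPM).

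In the untreated spheroids the question was how these genes moved with time alone. Against day 0, 65 of the 78 were lower on both later days, as were 35.0% of all genes tested. The median log2 ratio to day 0 was -0.23 on day 3 and -0.39 on day 7. At least 1.5-fold lower were 3 genes on day 3 (3.24% of all genes) and 8 on day 7 (2.37% of all genes). MRPL51, a large-subunit protein, had the lowest ratio on day 7 (log2 -1.01) and was chosen after its value was seen. MRPS25, a small-subunit protein particular to mitochondria, stood at 41.1, 44.1 and 53.9 CPM on days 0, 3 and 7 and had the highest ratio of the 78 on day 7 (log2 0.28). Because the baseline itself moved, the treated libraries of day 7 were also set against untreated day 0, which gave medians of 0.25 for CONV-TOPO and 0.19 for EE-TOPO.

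Levels differed widely among the genes. By CPM in untreated day 0, the highest were MRPS16 (409), MRPS6 (214) and MRPL49 (193), and the lowest MRPS31 (9.57), MRPS36 (9.97) and MRPL15 (11.7). MRPS16 and MRPS6 are small-subunit proteins with bacterial counterparts, and MRPS16 was the most abundant of the 78 in every library, at 349 to 434 CPM. Per kilobase of the canonical transcript, the median gene had 36.5 to 50.5 CPM, and the median of the large subunit was 1.37 to 1.57 times that of the small subunit. Per kilobase, MRPS6 (154 to 282 CPM) and MRPL20 (128 to 229 CPM) were high and MRPL42 (3.26 to 5.12 CPM) was low, although the annotated canonical transcript of MRPL42, at 15557 bases, is far longer than the median of 1242 bases and lowers its value per kilobase. MRPL20 was chosen after its value was seen.

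On day 3 the shift was small in size and wide in reach. In both schedules 74 of the 78 had a ratio below 0, against 39.9% of all genes tested. At least 1.5-fold lower were 1 gene under CONV-TOPO (2.84% of all genes), 8 under EE-TOPO (4.48% of all genes) and 1 under both (1.41% of all genes). The exact 95% interval of the fold of TMM-scaled CPM, which covers counting error only, lay below 1 for 56 genes under CONV-TOPO and for 72 under EE-TOPO, and above 1 for 1 gene in each. These intervals were computed for the 78 genes alone. No share of all genes stands beside these counts, so they do not set the 78 apart from other genes.

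The gene past 1.5-fold under both schedules was MRPL39, a large-subunit protein particular to mitochondria. It had 36.8 CPM in the untreated library of day 3, 24.6 CPM under CONV-TOPO and 23.8 CPM under EE-TOPO, and 40.7 CPM on day 0. Its folds were 0.647 (95% interval 0.569 to 0.735) and 0.615 (0.549 to 0.690). On day 7 it stood at 33.1, 32.5 and 30.9 CPM in untreated, CONV-TOPO and EE-TOPO spheroids, so in CPM both treated libraries were slightly below the untreated one. After TMM scaling they were above it, with log2 ratios of 0.24 and 0.14, so the direction on day 7 turned with the scaling.

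MRPL22, which lines the tunnel through which the new chain leaves the ribosome, had 19.1 CPM untreated, 13.0 under CONV-TOPO and 12.5 under EE-TOPO on day 3. MRPL53 had 29.6, 23.4 and 18.3 CPM in the same order. MRPS31 had 16.0 CPM untreated, with log2 ratios of -0.42 and -0.73. In these 3 genes both treated libraries were below the untreated library of day 3. Untreated MRPS31 itself varied from 9.57 CPM on day 0 to 16.0 CPM on day 3, a range as wide as the difference between treated and untreated.

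MRPS25 went the other way, with 44.1 CPM untreated, 61.5 CPM under CONV-TOPO and 52.2 CPM under EE-TOPO on day 3. It was the only gene of the 78 above 0 in both schedules on that day, with log2 ratios of 0.43 and 0.17. MRPL34, MRPS18A and MRPL32 came next, with ratios from -0.24 to 0.11. MRPS25 shares its span with NR2C2 on the other strand and MRPL34 shares its own with ABHD8, and since the library kit does not mark strand, reads of such pairs cannot be told apart.

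On day 7 the order was reversed for most genes. At least 1.5-fold higher were 37 genes under CONV-TOPO (19.7% of all genes), 34 under EE-TOPO (20.8% of all genes) and 32 under both (16.0% of all genes). None of the 78 was at least 1.5-fold lower under both, while 16.7% of all genes were. The fold interval from counting error lay above 1 for 66 genes under CONV-TOPO and for 60 under EE-TOPO, and below 1 for 3 and 6. As on day 3, it was computed for the 78 genes alone, so these counts have no share of all genes beside them. In all, 64 genes were below 0 in both schedules on day 3 and above 0 in both on day 7, against 21.6% of all genes, and 7 were below 0 throughout, against 12.8% of all genes.

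These shares depend on the scaling. When library totals were used in place of TMM, the median of all genes on day 7 moved to -0.26 under CONV-TOPO and -0.23 under EE-TOPO. The share of all genes at least 1.5-fold higher then went from 19.7% to 11.5% and the share lower from 21.6% to 32.6% under CONV-TOPO, and under EE-TOPO from 20.8% to 13.6% and from 22.3% to 31.5%. The medians of the 78 genes became 0.30 and 0.27, with 22 and 21 genes at least 1.5-fold higher. Above 0 were then 61 and 55 of the 78, and 9 and 14 genes that were above 0 with TMM fell below it, MRPL39 and MRPL58 among them under both schedules.

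The highest ratios of day 7 were in the large subunit. MRPL41, a protein particular to mitochondria (chromosome 9, hg38, 137551879 to 137552556, plus strand), had 78.0, 60.6 and 56.3 CPM in untreated spheroids on days 0, 3 and 7. It had 59.5 and 133 CPM under CONV-TOPO and 49.9 and 125 CPM under EE-TOPO on days 3 and 7, so both treated libraries of day 7 were above every other library. The folds to untreated on day 7 were 2.87 (2.66 to 3.09) and 2.63 (2.44 to 2.84).

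MRPL14 (chromosome 6, hg38, 44113451 to 44127492, minus strand), a protein of the face that meets the small subunit, had 55.5 CPM untreated, 119 CPM under CONV-TOPO and 117 CPM under EE-TOPO on day 7, and 66.9, 65.7 and 53.0 CPM on day 3. It shares part of its span with TMEM63B on the other strand. MRPL55 had 37.0, 75.3 and 71.5 CPM on day 7 and 41.8, 40.1 and 37.5 CPM on day 3. MRPL54, a weaker gene, had 11.1, 21.5 and 26.0 CPM on day 7 and 14.5, 15.1 and 11.1 CPM on day 3. In all 3 genes the treated libraries of day 7 were the highest of the 7, ahead of untreated day 0 (81.6, 49.1 and 19.8 CPM in the same order).

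The lowest ratios of day 7 among genes of at least 10 CPM were in MRPS27, MRPL42, MRPL35 and MRPL19. MRPS27 (chromosome 5, hg38, 72219403 to 72320241, minus strand), a small-subunit protein with pentatricopeptide repeats, had 61.2, 51.1 and 53.7 CPM untreated, 39.7 and 41.0 CPM under CONV-TOPO on days 3 and 7, and 42.6 and 31.3 CPM under EE-TOPO. All 4 treated libraries were below all 3 untreated ones. MRPL42 showed the same order of groups, with 76.8 to 79.6 CPM untreated and 50.6 to 68.8 CPM treated, as did MRPL35, with 36.5 to 40.6 CPM untreated and 28.0 to 32.5 CPM treated. MRPL19 had 68.8 CPM untreated, 53.4 CPM under CONV-TOPO and 50.2 CPM under EE-TOPO on day 7. MRPL1, which is under 10 CPM on average and was named after its values were seen, was lowest of all by the mean of both schedules, with 11.2, 6.99 and 6.65 CPM on day 7.

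**Figure D3:**
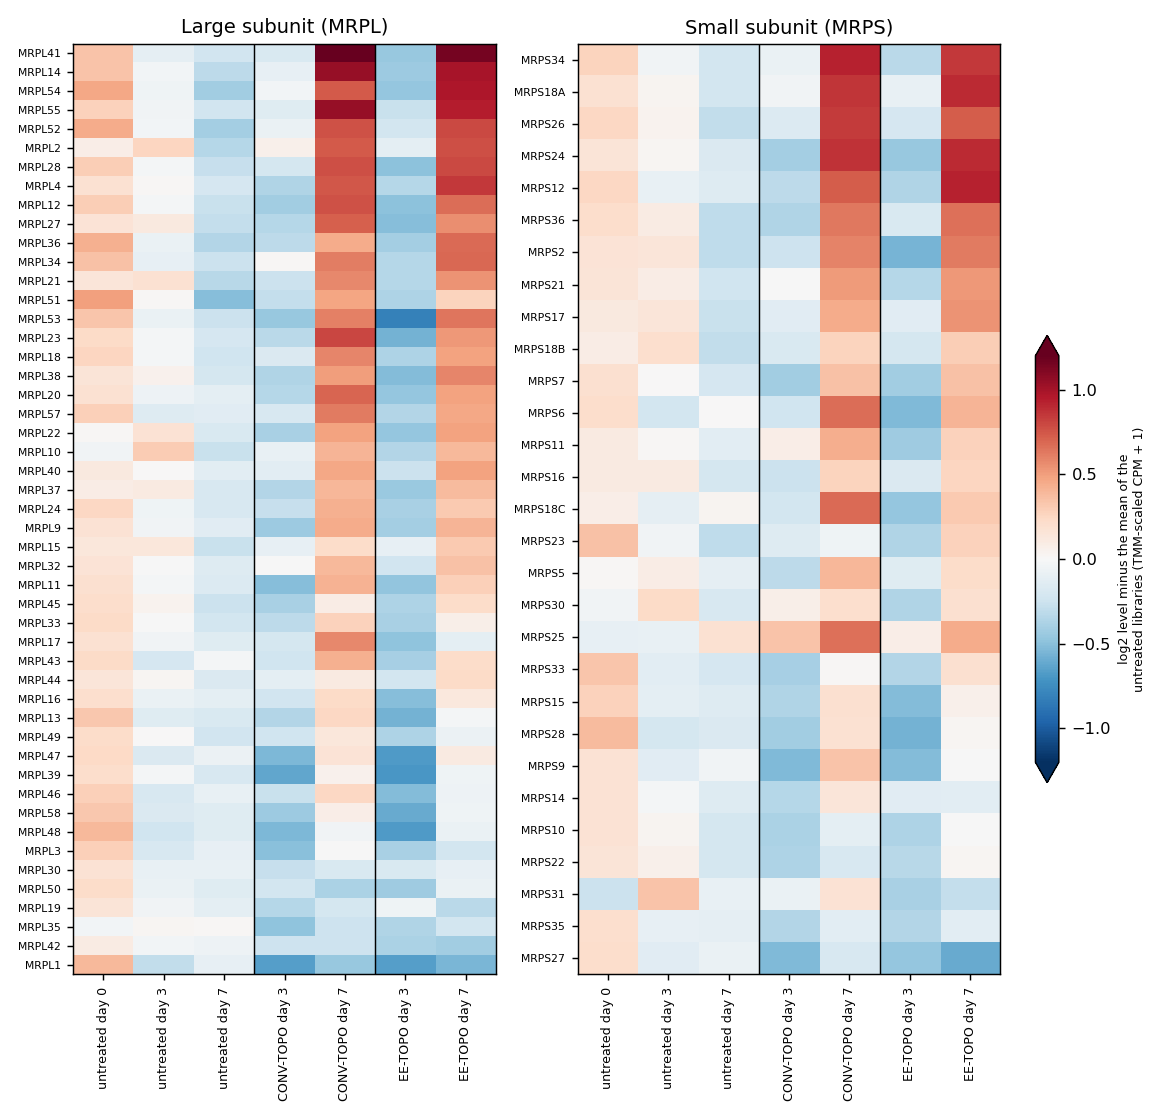
Colour gives the log2 level of each gene (rows, ordered by the mean ratio of day 7 within each subunit) in each library (columns), minus its mean over the 3 untreated libraries. The treated columns of day 3 are mostly blue (below that mean) and those of day 7 mostly red (above it), except at the foot of each panel, where MRPL42, MRPL1 and MRPS27 stay blue.

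The stalk of the large subunit recruits the translation factors. Its protein MRPL12 had 132, 112 and 95.9 CPM untreated on days 0, 3 and 7, 88.2 and 163 CPM under CONV-TOPO on days 3 and 7, and 85.1 and 156 CPM under EE-TOPO. MRPL10, which anchors MRPL12, had 95.8, 75.0 and 63.5 CPM on day 3 and 65.2, 86.4 and 87.2 CPM on day 7 in untreated, CONV-TOPO and EE-TOPO spheroids. MRPL11, at the base of the stalk, had 58.9, 43.1 and 45.1 CPM and then 54.0, 67.3 and 62.5 CPM. All 3 stalk genes were below untreated on day 3 and above it on day 7 in both schedules.

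MRPS12, a protein of the centre where codon and anticodon are matched, had 57.0, 49.9 and 49.5 CPM on day 3 and 54.8, 84.4 and 98.5 CPM on day 7. Its folds of day 7 were 1.87 (1.72 to 2.02) and 2.13 (1.97 to 2.31). MRPL45, which lies at the tunnel exit and holds the ribosome to the inner membrane, had smaller ratios on day 7, of log2 0.34 and 0.48, and MRPL44, also near the exit, of 0.28 and 0.41. MRPL58, a peptidyl-tRNA hydrolase built into the large subunit, had 54.9, 53.3 and 49.5 CPM on day 7, with log2 ratios of 0.23 and 0.10 after TMM scaling. Its CPM was lower in both treated libraries and its ratios were above 0, so its direction turned with the scaling, and the interval of its fold included 1 under EE-TOPO (0.973 to 1.18).

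MRPS18A, MRPS18B and MRPS18C are 3 relatives of 1 bacterial protein. MRPS18A is built into the large subunit in spite of its symbol, and had 37.5, 66.0 and 69.5 CPM on day 7. MRPS18B had 64.2, 78.4 and 81.8 CPM and MRPS18C 23.1, 30.5 and 24.0 CPM. The 3 relatives thus differed in size on day 7, with mean log2 ratios of 1.09, 0.57 and 0.47. MRPS30, also placed in the large subunit by structure, had 39.7, 43.3 and 44.0 CPM. MRPS36, now known as a part of the oxoglutarate dehydrogenase complex and not of the ribosome, had 7.19, 12.2 and 12.7 CPM, and its listed span overlaps that of GUSBP1 on the same strand.

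Large and small subunit were compared as groups. On day 3 the difference of medians, large minus small, was 0.02 under CONV-TOPO and -0.05 under EE-TOPO. On day 7 it was 0.10 and 0.17, with 26 of 49 large and 11 of 29 small-subunit genes at least 1.5-fold higher under CONV-TOPO and 24 and 10 under EE-TOPO. Between the untreated libraries the same difference was -0.11 for day 3 against day 0, -0.04 for day 7 against day 0 and 0.03 for day 7 against day 3. The values of day 3 and that of CONV-TOPO on day 7 were no larger in size than the largest of these, and that of EE-TOPO on day 7 was larger. With means in place of medians both values of day 7 were 0.05, and with the trend with gene features described below removed they were -0.12 and -0.04. Over the genes that overlap no other listed gene, both values of day 7 were instead larger than those over all genes of the set. They were then also larger in size than every difference between the untreated libraries given above. Those differences are over all genes of the set, however, and were not computed for the genes without overlap. The difference between the subunits was not tested. Proteins with a bacterial counterpart (46 genes) had a median of 0.55 over both schedules on day 7 and those particular to mitochondria (31 genes) of 0.39, with -0.32 and -0.26 on day 3.

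The schedules themselves were compared within each day. EE-TOPO against CONV-TOPO gave a median of -0.13 on day 3, with 59 of 78 genes lower under EE-TOPO, and of -0.05 on day 7, with 49 lower. Of all genes, 50.8% and 51.3% were lower on these days, with medians of -0.004 and -0.009. With the trend with gene features described below removed, the medians of the 78 genes were -0.02 on day 3 and -0.05 on day 7. At least 1.5-fold higher or lower were 0 genes on day 3 (5.39% of all genes) and 1 on day 7 (9.16% of all genes). That gene was MRPL17, a large-subunit protein with a bacterial counterpart, at 132 CPM under CONV-TOPO and 83.0 CPM under EE-TOPO, against 96.9 CPM untreated. Its fold between schedules was 0.616 (0.574 to 0.660). On the same day MRPS31 was lower under EE-TOPO (8.52 against 11.8 CPM) and MRPS23 (94.7 against 73.5 CPM) and MRPL50 (15.9 against 12.5 CPM) higher. On day 3, MRPS11 (27.9 against 39.5 CPM) and MRPS30 (36.6 against 49.0 CPM) were lower under EE-TOPO and MRPL19 (74.9 against 60.0 CPM) and MRPS14 (14.6 against 12.3 CPM) higher.

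A treatment effect shared by days 3 and 7 was tested with limma across all 14836 genes on the 6 libraries of these days, with treatment and day as terms. The error term is how far an effect differs from one day to the other, on 2 residual degrees of freedom. Before the test, limma drew this variance of each gene towards a trend over all genes, which adds degrees of freedom. No gene passed an adjusted p of 0.05 for either schedule against untreated or for EE-TOPO against CONV-TOPO (0.0% in each), and 0 of the 78 had an unadjusted p under 0.05, against 3.54% of all genes for EE-TOPO, 1.72% for CONV-TOPO and 0.923% between schedules. The smallest limma adjusted p of the 78 was 0.911 for EE-TOPO, 0.917 for CONV-TOPO and 1.00 between schedules. MRPS25 under CONV-TOPO had a log2 difference of 0.45 with an SE of 0.22 and a limma adjusted p of 0.917, and was higher than untreated in both libraries. As ratios below 0 on day 3 and above 0 on day 7 cancel in this model, its medians over the 78 genes were 0.14 for CONV-TOPO and 0.08 for EE-TOPO.

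What the 78 genes share beyond their symbol is a small size. Their canonical transcripts have a median of 1242 bases, against 3227 bases over 14162 genes tested that could be annotated, and their genes span a median of 8605 bases, against 28244. Their median GC content, at 48.2%, is close to the 48.7% of all. The ratios of day 7 moved with these features, both in the 78 genes and in all genes. Spearman's correlation of the mean day 7 ratio over the 78 genes was -0.53 with transcript length, -0.62 with span and 0.73 with GC content, and over all genes -0.56, -0.47 and 0.47. These values are across genes of the same libraries, which are not independent replicates.

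**Figure D4:**
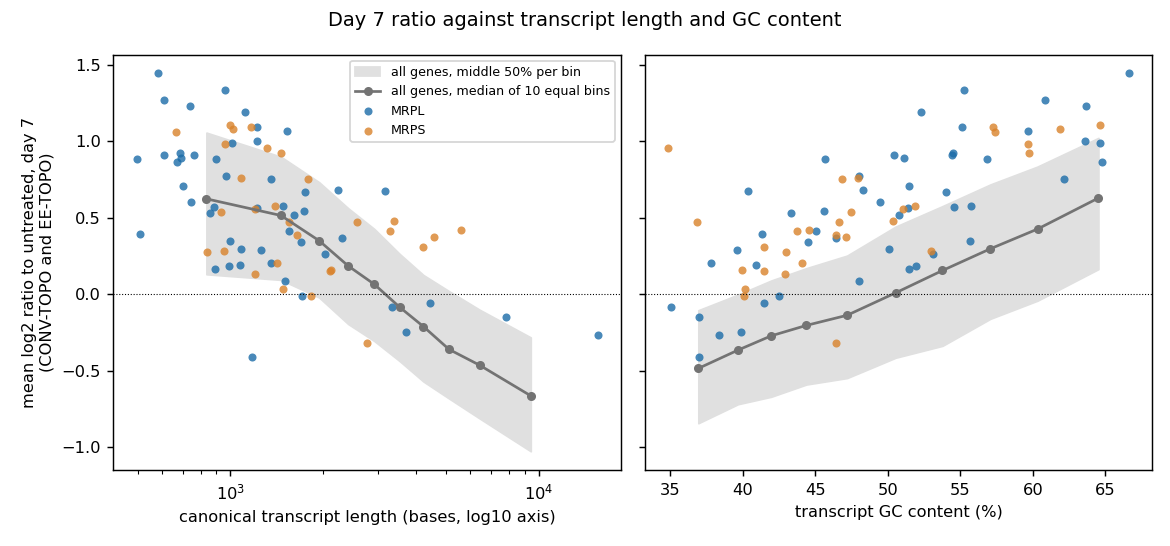
Points give the mean log2 ratio of both schedules to untreated on day 7 for each of the 78 genes against transcript length (log10 axis) and GC content, and the grey line and band the median and middle 50% of all annotated genes in 10 equal bins. Short and GC-rich genes lie higher in both, and the 78 genes follow the slope of all genes.

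The 32 genes that were at least 1.5-fold higher under both schedules had a median transcript of 984 bases and 55.2% GC, and the 7 below 0 in both had 3723 bases and 39.9% GC. A linear trend on span, transcript length and GC content held 36.0% and 33.4% of the variance of all ratios on day 7 under CONV-TOPO and EE-TOPO, and 7.46% and 15.4% on day 3. With that trend removed, the medians of the 78 genes were 0.20 and 0.15 on day 7 and -0.15 and -0.22 on day 3. At least 1.5-fold higher on day 7 were then 8 and 6 of the 78, against 10.9% and 13.3% of all annotated genes. After that step the medians of all annotated genes on day 7 were 0.02 and 0.01, and the count of higher genes was not above its background. Whether the trend came from the cells or from the RNA and libraries was not tested.

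The other genes of the mitochondrial translation pathway were taken from lists. None of their members passed limma at an adjusted p of 0.05. Of 6 genes listed as mitoribosome proteins with other names, 5 were above 0 on day 7 in both schedules. Of all genes tested, 48.4% were above 0 on that day under CONV-TOPO and 48.8% under EE-TOPO. One of the 5, OXA1L, is an insertase of the inner membrane and not a protein of the ribosome, with log2 ratios of 0.34 and 0.29. AURKAIP1 had 220, 428 and 413 CPM in untreated, CONV-TOPO and EE-TOPO spheroids, GADD45GIP1 157, 277 and 271 CPM and CHCHD1 116, 187 and 183 CPM. PTCD3, a small-subunit protein with pentatricopeptide repeats like MRPS27, was the exception, at 52.7, 35.9 and 32.4 CPM.

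The list of translation factors had 18 genes tested and also holds LRPPRC and SLIRP, which bind messenger RNA. On day 3, 0 of the 18 were above 0 under CONV-TOPO (48.5% of all genes) and 3 under EE-TOPO (47.2% of all genes), with medians of -0.18 and -0.30. On day 7, 9 were above 0 under each schedule (48.4% and 48.8% of all genes), with medians of 0.05 and 0.05. With the trend with gene features removed, the medians of day 7 were 0.19 and 0.08, beside 0.20 and 0.15 for the 78 genes, and the difference between the lists was not tested. TUFM, the elongation factor that brings the charged tRNA, had log2 ratios of 0.43 and 0.40, and MTIF2, which starts translation, of -0.50 and -0.79. Of 17 mitochondrial aminoacyl-tRNA synthetases, which charge the tRNAs, 9 and 8 were above 0 (48.4% and 48.8% of all genes). Their medians were 0.10 and -0.01, and IARS2 had 308, 157 and 137 CPM. Their transcripts are longer than those of the 78 genes, with medians of 2536 bases for the factors and 2727 for the synthetases.

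Of 27 genes listed as factors that assemble the ribosome, 20 and 19 were above 0 on day 7 (48.4% and 48.8% of all genes), with medians of 0.18 and 0.24. The list also holds LYRM4, a protein of iron-sulfur cluster synthesis. MALSU1, which docks on MRPL14 and keeps the subunits from joining too early, had ratios of 0.83 and 0.68, and MPV17L2 had the highest, of 1.31 and 1.35. Genes that copy and transcribe mitochondrial DNA lay lower, with medians of -0.18 and -0.32 over 10 genes. TFAM, which packages that DNA, had 93.8, 44.9 and 54.8 CPM. The mitochondrially encoded genes were not analysed here.

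Regulators of nuclear genes for mitochondria were read as well. Of 10 tested, 4 were above 0 on day 7 under CONV-TOPO and 3 under EE-TOPO (48.4% and 48.8% of all genes), with medians of -0.16 and -0.34. Their transcripts are long, with a median of 5277 bases. With the trend with gene features removed, their medians of day 7 were 0.05 and 0.01, so the lower medians were not seen after that step. GABPA, the DNA-binding subunit of nuclear respiratory factor 2, had 57.8 CPM untreated, 16.3 CPM under CONV-TOPO and 20.2 CPM under EE-TOPO on day 7, and 54.2, 55.0 and 50.3 CPM on day 3. NRF1 had 27.5, 27.9 and 17.0 CPM on day 7, and ESRRA, a nuclear receptor that acts on such genes, 82.7, 127 and 129 CPM. GABPA was thus lower and ESRRA higher in both treated libraries of day 7, and NRF1 was lower under EE-TOPO alone. YY1 had log2 ratios of -0.31 and -0.35 on that day and SP1 of -0.16 and -0.20.

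Cytosolic ribosomal proteins (83 tested) and nuclear-encoded subunits of oxidative phosphorylation (76 tested), both with short transcripts of 827 and 830.5 bases in the median, had the same course as the 78 genes. The cytosolic ribosomal proteins had medians of -0.25 and -0.51 on day 3 and 0.57 and 0.47 on day 7 under CONV-TOPO and EE-TOPO, and the oxidative phosphorylation subunits -0.35 and -0.50 and then 0.76 and 0.58. Both lists were thus below untreated on day 3 and above it on day 7 in the median, as the 78 genes were. With the trend with gene features removed, the medians of day 7 were smaller. They were 0.10 and 0.02 for the cytosolic ribosomal proteins and 0.25 and 0.12 for the oxidative phosphorylation subunits, beside 0.20 and 0.15 for the 78 genes. The differences between the lists were not tested.

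Promoters of mitochondrial protein genes are known to carry sites for NRF1, for ETS factors such as GABPA, for YY1 and for SP1. The 250 bases before the start were read from RefSeq (build GRCh38.p14) for the 69 of 78 genes that matched by symbol (all but MRPL10, MRPL13, MRPL15, MRPL2, MRPL21, MRPL23, MRPL35, MRPS28 and MRPS36), and searched on both strands for GCGCATGC (NRF1), CCGGAAGT (ETS), AAGATGGC (YY1) and GGGCGG (SP1), none of which contains another. NRF1 letters were in 6 genes (8.70%, against 4.62% of 11426 genes tested and 2.63% of all 35116 promoters), ETS letters in 9 (13.0%, against 6.79% and 3.42%), YY1 letters in 5 (7.25%, against 1.79% and 1.36%) and SP1 letters in 38 (55.1%, against 66.1% and 42.6%). The median day 7 ratio was 0.55 in the 6 genes with NRF1 letters and 0.48 in the 63 without, 0.75 in the 9 with ETS letters and 0.48 in the 60 without, 0.91 in the 5 with YY1 letters and 0.48 in the 64 without, and 0.53 in the 38 with SP1 letters and 0.48 in the 31 without. A match of letters is a description and not a site in use.

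The promoters below are shown to set the genes with the highest and the lowest mean ratio of day 7 among those of at least 10 CPM beside 3 named genes that hold the motifs, each printed from its distant end to the base before the start, with matches of any of the 4 motifs in capitals. MRPL41 holds 8 matches to SP1 in repeated units and MRPS27 holds 1. MRPL53 holds the ETS letters, MRPL32 the NRF1 and YY1 letters with 3 matches to SP1, and MRPS12 the YY1 letters with 1 match to SP1.
MRPL41, chr9:137551629-137551878 (plus strand): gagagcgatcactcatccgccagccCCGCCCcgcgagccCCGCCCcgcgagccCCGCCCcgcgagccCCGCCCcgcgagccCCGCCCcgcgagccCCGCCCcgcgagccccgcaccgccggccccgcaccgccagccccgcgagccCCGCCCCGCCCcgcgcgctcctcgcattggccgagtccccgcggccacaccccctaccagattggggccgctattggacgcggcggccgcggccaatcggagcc
MRPS27, chr5:72320241-72320490 (minus strand): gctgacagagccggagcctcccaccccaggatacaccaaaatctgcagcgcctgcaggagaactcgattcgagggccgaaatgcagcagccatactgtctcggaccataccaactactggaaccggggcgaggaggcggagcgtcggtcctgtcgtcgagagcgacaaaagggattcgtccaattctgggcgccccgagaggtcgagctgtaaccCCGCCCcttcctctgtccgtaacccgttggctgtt
MRPL53, chr2:74472681-74472930 (minus strand): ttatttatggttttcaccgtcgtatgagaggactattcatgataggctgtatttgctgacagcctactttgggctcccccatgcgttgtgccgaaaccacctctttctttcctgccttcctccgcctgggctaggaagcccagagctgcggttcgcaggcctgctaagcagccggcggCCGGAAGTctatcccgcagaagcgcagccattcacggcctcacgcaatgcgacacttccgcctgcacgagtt
MRPL32, chr7:42932126-42932375 (plus strand): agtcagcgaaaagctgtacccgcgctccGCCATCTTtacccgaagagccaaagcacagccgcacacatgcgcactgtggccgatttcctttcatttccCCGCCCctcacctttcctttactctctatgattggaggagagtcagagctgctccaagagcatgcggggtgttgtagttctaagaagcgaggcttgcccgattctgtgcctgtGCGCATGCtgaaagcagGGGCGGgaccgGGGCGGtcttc
MRPS12, chr19:38930694-38930943 (plus strand): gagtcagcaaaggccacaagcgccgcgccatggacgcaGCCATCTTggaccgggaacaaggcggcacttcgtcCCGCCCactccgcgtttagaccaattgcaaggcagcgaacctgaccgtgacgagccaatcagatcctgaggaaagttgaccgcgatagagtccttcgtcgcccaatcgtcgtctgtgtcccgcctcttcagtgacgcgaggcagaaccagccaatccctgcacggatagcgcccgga

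Of the 78 genes, 19 share some of their listed span with another listed gene and 42 have a pseudogene named after them, so that their reads could be split or shared in counting. Among the 32 that were at least 1.5-fold higher under both schedules on day 7, 7 share span with another listed gene, MRPL14 and MRPS18A among them.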

How the data were processed

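RNA of PC-3 spheroids was sequenced by the authors from TruSeq v2 libraries, which do not mark strand, mapped to hg38 with STAR and counted per gene, with DESeq2, edgeR and Partek Flow named for the analysis. What the authors deposited is a single table of CPM over 18144 genes with 0.0001 added throughout, an offset that was subtracted. Of 10 samples, 7 libraries were analysed and grouped by the labels. Between 88.4% and 89.5% of low values per library lay within 0.05 of a whole read, so the depth (median 18.9 M reads; M, 1000000) was estimated but no count test was run. Fold intervals are exact conditional binomial 95% intervals of the estimated reads and cover counting error only.

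Values were scaled by TMM, and a gene was tested if 2 or more libraries reached 0.528 CPM, the value of 10 reads at median depth. limma 3.58.1 (R 4.3.3) was fitted on log2(CPM + 1) with treatment and day, a mean-variance trend and Benjamini-Hochberg adjustment over all genes, two-sided, and was checked on simulated data. Nothing in the labels says whether a library came from 1 spheroid or several. Other steps used Python 3.11.15 with pandas 2.3.3, numpy 2.4.6 and scipy 1.17.1. Transcript length and GC content are of the GENCODE 44 canonical transcript, for 95.5% of genes tested and all 78 members. Subunit, origin and gene lists were written from general knowledge. A marker gene of the list of low markers is not reported here.

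The members and lists were chosen with earlier results of these data known. Genes were named by rule, namely the 3 highest and 3 lowest by CPM on day 0, the 4 highest and 4 lowest by mean ratio on each day among genes of at least 10 CPM, the 2 highest and 2 lowest between schedules on each day, and 12 genes by role. Alternatives were other scalings, pseudocounts, thresholds, baselines, fits and subunit assignments.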

Additional observations from a re-analysis of the deposited data

Results flagged for a closer look

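Both schedules had members that were below untreated in both treated libraries of day 3 and above it in both of day 7. The median log2 ratio of the 78 genes went from -0.26 on day 3 to 0.57 on day 7 under CONV-TOPO and from -0.37 to 0.51 under EE-TOPO. Among the genes named for the highest ratio of day 7 or the lowest of day 3, the mean ratio of day 7 minus that of day 3 was 1.65 for MRPL41, 1.57 for MRPL14, 1.43 for MRPL53, 1.39 for MRPL55, 1.27 for MRPL22 and 0.83 for MRPL39, whose ratios of day 7 fell below 0 with library totals. The mean ratio of MRPL53 on day 7 fell below 0 with the trend with gene features removed. As the ratios that named these genes enter the difference, large values follow in part from the choice. The difference between the days was not tested, because each treatment had 1 library a day, and on each day both schedules share the untreated library.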

How the results depend on the processing

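In limits, there were no replicates, the depth of 15.0 M to 22.5 M reads (M, 1000000) was estimated, and the spread used here is the SD over the 3 untreated libraries (0.20 for the median of the 78 genes and 0.05 for the difference between subunits, from log2 differences to the untreated mean of each gene). As these libraries are of days 0, 3 and 7, the spread includes the change with time and is not a measure of replicate noise. Of 172 alternative values for summaries, 124 stayed within that spread or within 1.5 times a count. For median ratios of single libraries, the setting without the filter on low values repeats the main values, so its agreement was fixed beforehand. The 124 also hold limma counts of 0 that were 0 in the main fit. In all 27 counts of genes past adjusted p in limma, main and alternative, 0 of the 78 passed, and 5 of 78 had an unadjusted p under 0.05 when EE-TOPO and CONV-TOPO were fitted on their own 4 libraries, against 1491 of all 14836 genes. The values that moved follow, for CONV-TOPO and then EE-TOPO, and their cause was not tested. With untreated day 0 as baseline the medians were -0.50 and -0.62 on day 3 and 0.25 and 0.19 on day 7. Library totals gave 0.30 and 0.27 on day 7, and removal of the trend with gene features 0.20 and 0.15. Counts of genes lower on day 3 (under CONV-TOPO, EE-TOPO and both, in this order, with the share of all genes in brackets) were 0, 0 and 0 (0.391%, 0.472% and 0.175%) at a 2-fold threshold, 29, 52 and 25 (13.5%, 18.8% and 7.99%) at a threshold 25% above equality, 0, 4 and 0 (2.34%, 3.13% and 1.08%) with library totals, and 0, 3 and 0 (2.70%, 3.85% and 1.23%) with the trend removed. Under CONV-TOPO and under both they were 2 and 2 (5.48% and 2.53%) with a pseudocount of 0.1 CPM and 2 and 2 (1.89% and 0.667%) with the mean of the untreated libraries as baseline. Counts higher on day 7 were 14, 14 and 11 (7.37%, 8.52% and 5.63%) at 2-fold, 22, 21 and 20 (11.5%, 13.6% and 9.27%) with library totals, and 8, 6 and 4 (10.9%, 13.3% and 7.56%) with the trend removed. At 25% above equality, CONV-TOPO had 58 (31.4%), and with the mean baseline EE-TOPO had 20 (17.8%) and both 18 (12.6%). In limma, without day 3 the medians were 0.57 and 0.51, and without day 7 they reversed to -0.26 and -0.37. With the trend removed the difference between subunits was 0.0168 on day 3 under EE-TOPO and -0.122 and -0.0374 on day 7. Over genes that overlap no other listed gene it was 0.29 and 0.27 on day 7, and under EE-TOPO 0.0547 with means and 0.0736 with the mean baseline. Among 504 alternative values of named genes, 380 stayed within the spread of the gene, 123 moved beyond it, and MRPL53 on day 7 reversed to -0.19 with the trend removed. The 380 include the values without the filter on low values, 1 for each of 72 results, which equal the main ones by construction. The day term of limma already matches treated and untreated libraries by day. No paired analysis was possible because each group had 1 library, so that beyond the day no replicate number could pair libraries.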
